A study of Mus musculus with 2 samples.

Results

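MicroRNAs are short RNAs that guide Argonaute proteins to messenger RNAs and lower their translation and stability. Each is cut from a hairpin within a longer primary transcript, first in the nucleus by the Drosha and Dgcr8 microprocessor and then in the cytoplasm by Dicer. Bases 2 to 8 of the mature strand, the seed, carry most of the target recognition, and many hairpins lie in introns of host genes or in long noncoding RNAs that are transcribed with them. In the mouse retina microRNAs are needed for the survival and maturation of neurons. The families best known there include miR-124 of neurons, miR-9 of progenitors and glia, the miR-183, miR-96 and miR-182 cluster of photoreceptors, and the related miR-204 and miR-211.

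The loci described here are the named microRNA genes that carried signal in total RNA of type 5 bipolar cells, a class of retinal interneuron that passes cone signals to the inner retina. They were selected on their measured level: a symbol beginning with Mir and a digit, or with Mirlet7, not ending in hg, and a mean of at least 1 TPM (transcripts scaled to a fixed library total) over both libraries. Of 652 such loci in the deposited table of 32813 symbols, 96 (14.7%) met the rule. Of all symbols, 48.7% had a mean of at least 1 TPM. Their level chose them, so member levels below are descriptions and were not tested.

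The series holds 1 group of 2 libraries, called replicate 1 and replicate 2, and the design text calls them biological replicates. Both come from the Htr3a-GFP line, named for green fluorescent protein under the serotonin receptor gene Htr3a, so the sort takes cells by the reporter and not by type. Retinas were dissociated, the cells were sorted by flow cytometry into RNAlater, and total RNA was amplified with the Ovation V2 kit of NuGEN. The labels give no strain, age, sex or pooling of animals. The series has no second condition, so nothing is compared between treatments or genotypes. In a bulk sample, fewer cells of a type and less RNA per cell cannot be told apart. The assay reads fragments of long RNA that map to a hairpin locus. It gives no level of the mature strand of about 22 bases.

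Mature strands of the loci on which the results turn are shown 5′ to 3′ from RefSeq on GRCm38.p6, with the seed in capitals. They are shown because several loci share a seed. Of the 96 loci, 82 matched a mature entry. The first pair is the strand of the highest locus and the strand of the locus inside the bipolar channel gene Trpm1.
miR-29c-3p: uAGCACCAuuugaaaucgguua
miR-211-5p: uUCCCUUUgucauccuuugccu
The next 6 come from the Mir344 loci of chromosome 7, and these 6 strands carry 3 seeds.
miR-344c-5p: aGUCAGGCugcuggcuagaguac
miR-344-5p: aGUCAGGCuccuggcuagauuccagg
miR-344c-3p: uGAUCUAGucaaagccugacagu
miR-344-3p: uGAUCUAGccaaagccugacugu
miR-344e-3p: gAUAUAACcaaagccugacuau
miR-344d-3p: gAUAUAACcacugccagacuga
The last 6 belong to broadly expressed families with members above the line.
miR-103-3p: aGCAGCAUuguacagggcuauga
miR-16-5p: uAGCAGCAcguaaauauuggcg
miR-181a-5p: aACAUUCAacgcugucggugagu
miR-181b-5p: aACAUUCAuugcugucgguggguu
let-7b-5p: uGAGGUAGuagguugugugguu
let-7g-5p: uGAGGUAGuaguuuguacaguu

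The 82 loci with an entry gave 125 mature strands, and 6 seeds were shared by 2 or more of these loci. Members without an entry were not compared, so further shared seeds may be missed. GUCAGGC opened the 5p strand of 6 Mir344 loci, and GAUCUAG the 3p strand of Mir344, Mir344-2 and Mir344c. The third Mir344 seed, AUAUAAC, was carried by Mir344d-1, Mir344d-2 and Mir344e and also by Mir410, a locus of the chromosome 12 imprinted domain. The remaining shared seeds were those of the miR-181, miR-15 and miR-16, and let-7 pairs.

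Mir29c was far above every other microRNA locus. It had 937 TPM in replicate 1 and 432 TPM in replicate 2, a mean of 685 ± 357 (SD, n = 2), and ranked 124 among all symbols. Its mean was 7.13 times that of the next locus, Mir344c, which ranked 1738. The miR-29 family is known for targeting collagen and other extracellular matrix messages and DNA methyltransferases. The hairpin lies on chr1:195037547-195037634 (GRCm38, plus strand), and all 88 of its bases fall within an exon of the noncoding RNA A330023F24Rik, which had 228 TPM in replicate 1 and 140 TPM in replicate 2. It also lies opposite an exon of Cd46, a complement regulator, at 23.1 TPM in replicate 1 and 12.6 TPM in replicate 2. Fragments of the hairpin and of these overlapping genes could be split between them by the authors' counting, and the labels do not say whether strand was used. Mir29b-2, whose hairpin ends 426 bases upstream on the same host RNA, was listed at 0 in both libraries. All 3 transcripts with a value (Mir29c, A330023F24Rik and Cd46) were higher in replicate 1.

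Below Mir29c the levels fell steeply. Of the 96 loci, 1 had a mean over 100 TPM, 38 had 10 to 100 TPM and 57 had 1 to 10 TPM. Together they made up 0.220% of the TPM of replicate 1 and 0.167% of that of replicate 2, and Mir29c alone was 42.6% of the member sum in replicate 1 and 25.9% in replicate 2. Mir344c, with 94.1 TPM in replicate 1 and 97.9 TPM in replicate 2 (96.0 ± 2.70, SD, n = 2), was the most even of the top 20. Mir344-2 followed with 57.8 TPM in replicate 1 and 87.8 TPM in replicate 2. Several of the others sit on exons of other genes. Mir1191 lies wholly in an exon of BC024978 with 16.2 TPM in replicate 1 and 40.6 TPM in replicate 2, and Mir3473c overlaps an exon of Traf5 by 65 of its 81 bases. Mir350, in an intron of the centrosomal gene Cep170, had 30.3 and 18.5 TPM. Mir3470a, wholly inside no annotated gene, had 37.1 and 59.3 TPM. Mir103-2, which targets several genes of lipid and insulin metabolism and lies in an intron of the pantothenate kinase gene Pank2, had 51.8 TPM in replicate 1 and 26.3 TPM in replicate 2.

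**Figure D1:**
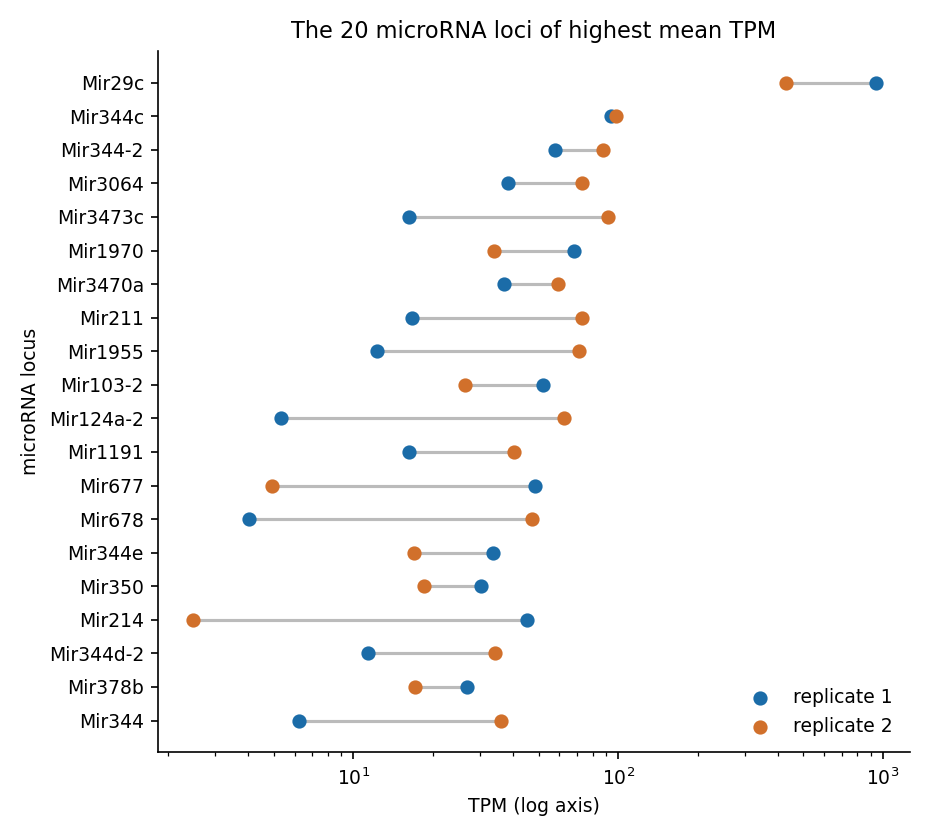
TPM (log axis) of the 20 microRNA loci of highest mean in replicate 1 (blue) and replicate 2 (orange), a grey line joining the values of a locus. Mir29c stands alone at 937 and 432 TPM, and the points of Mir124a-2, Mir678 and Mir214 lie over 10-fold apart.

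All of the top 20 were above 0 in both libraries, 12 of them higher in replicate 2 and 8 higher in replicate 1, and their order differed between the libraries. Mir211 had 16.6 TPM in replicate 1 and 73.2 TPM in replicate 2. Mir124a-2, the neuronal microRNA, had 5.33 TPM in replicate 1 and 62.7 TPM in replicate 2. Mir214 had 45.3 TPM in replicate 1 and 2.47 TPM in replicate 2. From Mir344-2 down to Mir344, the lowest of the 20 at 6.25 and 35.99 TPM, each mean differed from the next by less than the SD of either locus.

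Markers of other retinal cells moved with the libraries. Of 6 amacrine markers 5 were higher in replicate 2, Gad1 with 0.06 TPM in replicate 1 and 10.43 TPM in replicate 2, and the list summed to 60.4 and 93.7 TPM. Of 6 rod markers 5 were higher in replicate 2, Gnat1 with 14.3 TPM in replicate 1 and 113 TPM in replicate 2, while the list summed to 1540 TPM in replicate 1 and 1375 TPM in replicate 2. The Muller glia list summed to 179 TPM in replicate 1 and 231 TPM in replicate 2, and mitochondrial RNA made up 17.3% and 24.6% of the TPM. No marker of these lists was listed at 0. Their part in the microRNA differences was not tested. The labelled cell type was well represented: all 11 markers of type 5 and ON bipolar cells were above 10 TPM in both libraries, Htr3a at 90.9 and 88.8 TPM.

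Members often had a value in 1 library and none in the other. In each library at 1 TPM or more were 37 of 96 (38.5%), against 84.4% of all symbols with a mean of at least 1 TPM and 41.1% of all symbols whatever their mean. Of the members, 59 (61.5%) were listed at 0 in 1 library, 26 of them in replicate 1 and 33 in replicate 2. Of all symbols with a mean of at least 1 TPM, 8.55% were listed at 0 in 1 library. The rule uses these same values, so the counts describe the members. At a matched mean of 1 to 10 TPM, 89.5% of 57 members and 19.8% of 6071 other symbols were listed at 0 in 1 library. At 10 to 100 TPM it was 21.1% of 38 members and 1.27% of 8178 other symbols. Of small nucleolar RNA genes, which are also short, 91.4% of 35 were listed at 0 in 1 library in the lower range and 9.09% of 11 in the upper.

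The spread of a single library around its pair was 2.12 log2 units for members of 1 to 10 TPM and 1.15 for other symbols of that level, on the log2(TPM + 1) scale. At 10 to 100 TPM it was 1.90 for members and 0.85 for other symbols. Of the 39 members with a mean of at least 10 TPM, 15 lay within 2-fold between the libraries and 17 lay over 4-fold apart. Among these 39, the widest gaps toward replicate 1 were at Mir1190 (31.7 TPM in replicate 1, 0 in replicate 2), Mir344d-1 (31.1 and 0), Mir16-1 (26.46 and 0), Mir344b (24.1 and 0) and Mir15a (23.0 and 0). Toward replicate 2 they were at Mir5119 (0 in replicate 1, 22.01 TPM in replicate 2), Mir124a-2, Mir678 (4.05 and 47.1), Mir1955 (12.3 and 71.0) and Mir3473c (16.2 and 91.6). The 2 libraries of 1 group give a single difference per locus, so no sign test was made.

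The low values were grained. A TPM is a read estimate divided by an effective length, so a hairpin of given length can take only certain values when the estimate is a whole number of reads. In replicate 1 the TPM of members fell on multiples of 445 TPM divided by the hairpin length less 25.8 bases, and in replicate 2 on multiples of 218 TPM divided by the length less 27.9 bases. Both numbers were fitted to the members themselves, after their values were seen. Within 0.05 of a whole multiple lay 46 of 62 members (74.2%) of up to 5 steps in replicate 1 and 30 of 43 (69.8%) in replicate 2, a window that covers 0.1 of each step. Small nucleolar RNA genes, which did not enter the fit, lay on the same grid in 14 of 21 cases (66.7%) in replicate 1 and 16 of 24 (66.7%) in replicate 2. Of members that lie inside a same-strand gene and overlap its exon, in part or whole, 9 of 20 values were whole. Of the other members 67 of 85 were.

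**Figure D2:**
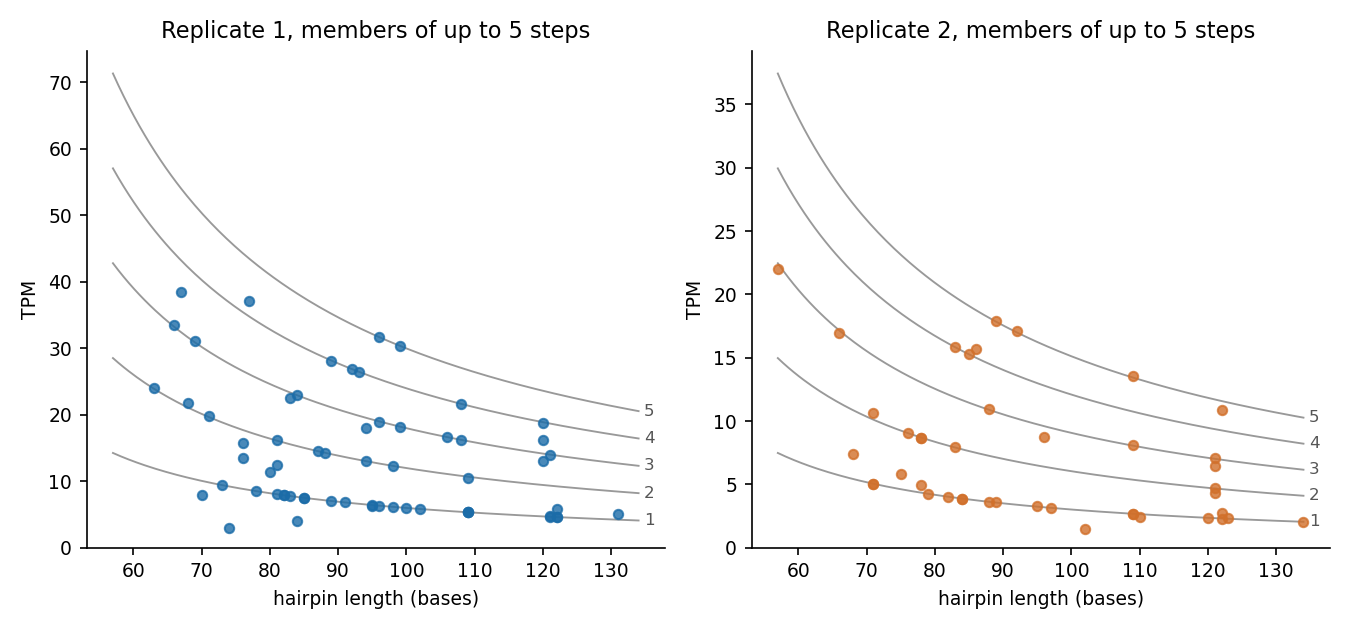
TPM against hairpin length in bases for members of up to 5 steps, replicate 1 left and replicate 2 right. Points are loci and grey lines are 1 to 5 whole steps of the fitted grid: in replicate 1, 46 of 62 points lie within 0.05 step of a whole number, and in replicate 2, 30 of 43 do.

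One step, the size that a single read or read pair would have on this grid, was worth 4.11 to 14.3 TPM in replicate 1 (median 7.04) and 2.06 to 7.49 TPM in replicate 2 (median 3.57) at the lengths of the members. A single step in replicate 2 at the longest hairpin gives a mean of 1.03 TPM over both libraries. A single step in either library is therefore enough to meet the line of 1 TPM at any member length. At shorter hairpins part of a step is enough: Mir1982, of 74 bases, was a member with 0.321 step in replicate 1 and 0 in replicate 2. Summed over both libraries, 30 of the 95 members of known length had under 1.5 steps, 35 had 1.5 to 5, 15 had 5 to 10 and 15 had 10 or more. The 59 members listed at 0 in 1 library had a median of 1.26 steps and at most 5.04, and the 36 above 0 in both had a median of 9.06.

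Steps also order the top loci differently from TPM. Within a library a step is worth less TPM at a longer hairpin. Between libraries, the fitted number that is divided by the length was 2.04 times as large in replicate 1 as in replicate 2. Mir29c had 131 steps in replicate 1 and 119 in replicate 2. Mir103-2 had 7.002 and 7.018 steps, Mir1970 11.99 and 11.84, and Mir344c 14.0 and 28.8. Mir124a-2 had 0.997 step in replicate 1 and 23.3 in replicate 2, Mir211 2.99 and 26.2, and Mir1955 1.997 and 22.8. Steps are not scaled for depth, which is unknown for both libraries.

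At the line itself the members rested on a single library. The 3 just inside were Mir1946a (0 in replicate 1, 2.04 TPM in replicate 2), Mir669g (0 and 2.32) and Mir467f (0 and 2.39). The 3 just outside were Mir669p-1 and Mir669p-2 (each 0 in replicate 1 and 1.85 TPM in replicate 2) and Mir5098 (0 and 1.81). In all, 102 of 652 microRNA loci (15.6%) were above 0 in either library, 6 of them under the line, and 550 were listed at 0 in both. Of all symbols, 60.9% were above 0 in either library. Atp5g2, a gene of ATP synthase, is also listed at 0 in both. Whether a listed 0 is an absence of signal or a failed estimate was not tested.

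Where a microRNA lies in a host gene, the level of the host was not used to choose the members. In the GENCODE M21 annotation 95 members were found. Of these, 63 (66.3%) lay wholly inside a gene of the same strand, and 10 lay only opposite a gene that spans them. The other 22 (23.2%) lay wholly inside no gene, which leaves partial overlaps uncounted. Mir344g is among them, though A330076H08Rik (1312 TPM in replicate 1, 805 TPM in replicate 2) reaches into its hairpin on the same strand. Among the 554 other annotated loci 376 (67.9%) lay inside a gene of the same strand, so position inside a gene was about equally common. The hosts of members were more often expressed. Of members with a host in the table, 48 of 55 (87.3%) had a host of at least 1 TPM in both libraries, and of other loci 184 of 337 (54.6%) did. The background over protein-coding symbols was 53.2%. The median host had a mean of 50.6 TPM for members and 9.78 TPM for other loci. Counted once per host gene, 45 of 49 hosts of members (91.8%) and 159 of 225 hosts of other loci (70.7%) were above the line. Among loci that overlap no host exon, which share no exonic fragments, it was 32 of 38 members (84.2%) and 105 of 238 other loci (44.1%). A single host, Sfmbt2 at 0.64 TPM, carries 70 of these loci, 66 of them not members. Without it the counts were 48 of 51 members (94.1%) and 184 of 271 other loci (67.9%), and among loci that overlap no host exon 32 of 34 members (94.1%) and 105 of 172 other loci (61.0%).

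The share of loci that were members rose with the level of the host. It was 6 of 149 loci (4.03%) with a host under 1 TPM, 3 of 70 (4.29%) at 1 to 10 TPM, 26 of 130 at 10 to 100 TPM and 20 of 43 (46.5%) at 100 TPM or more. For loci that overlap no host exon, leaving out the 70 loci in Sfmbt2, the shares were 1 of 62 (1.61%), 1 of 38 (2.63%), 18 of 77 (23.4%) and 14 of 29 (48.3%). Loci in 1 host share its transcript and are not independent, so no test was made.

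**Figure D3:**
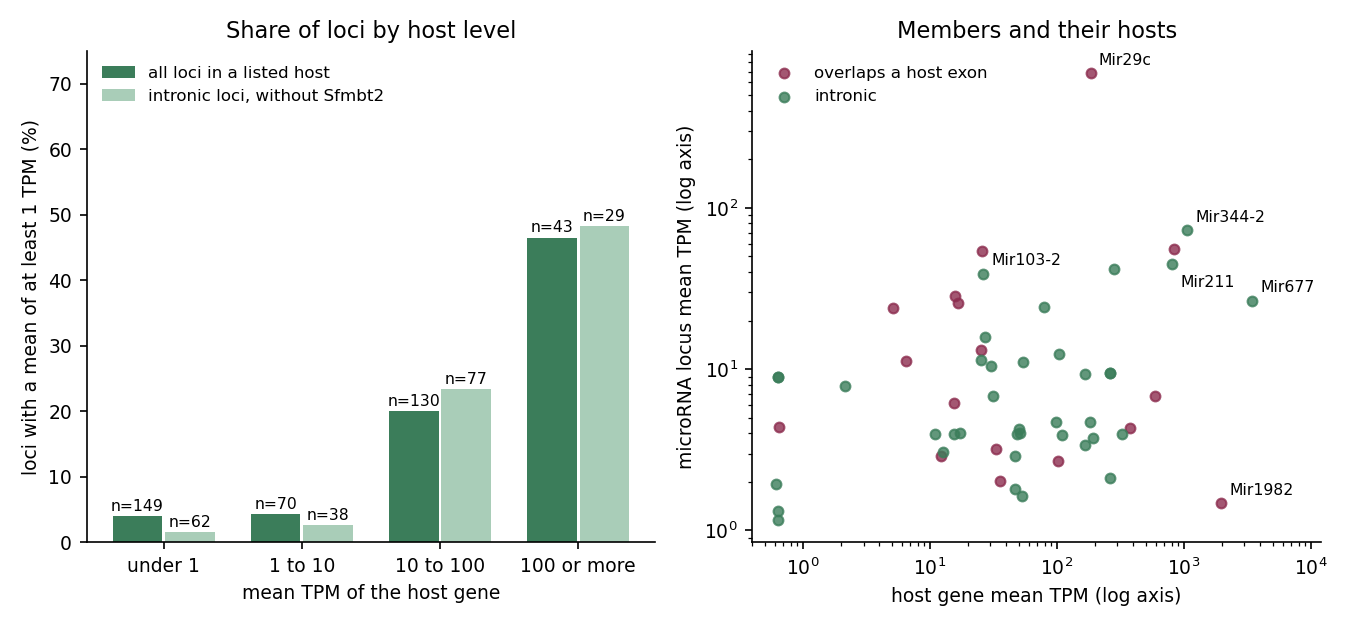
Left, the percent of loci with a mean of at least 1 TPM by mean TPM of the host gene, for all loci in a listed host (dark) and for intronic loci without Sfmbt2 (light), with the number of loci above each bar. It is 4.03% under 1 TPM and 46.5% at 100 TPM or more. Right, mean TPM of each member against that of its host (both log axes), with members that overlap a host exon in red and intronic members in green.

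The 19 hosts of at least 100 TPM with a member held 20 members, of which 12 were listed at 0 in 1 library. Trpm1, the cation channel that opens in ON bipolar cells when glutamate release falls, had 988 TPM in replicate 1 and 636 TPM in replicate 2. Mir211 lies in its intron at chr7:64205806-64205911 (GRCm38, plus strand) with 16.6 TPM in replicate 1 and 73.2 TPM in replicate 2. Host and microRNA thus differed between the libraries in opposite directions.

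Ddx5, a helicase of the microprocessor itself, had 833 ± 233 TPM (SD, n = 2), and Mir3064, which lies wholly in an exon of it, had 38.4 TPM in replicate 1 and 72.8 TPM in replicate 2. Phf21a, a reader of unmethylated histone H3, had 281 ± 22.1 TPM (SD, n = 2), and its intronic Mir1955 had 12.3 TPM in replicate 1 and 71.0 TPM in replicate 2. Tenm4, a teneurin adhesion protein, had 165 ± 19.1 TPM (SD, n = 2), and its intronic Mir708 had 10.6 TPM in replicate 1 and 8.14 TPM in replicate 2. Of these, Mir708 was the even one.

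Among the most abundant hosts, A330076H08Rik and Ddx5 held Mir344-2 and Mir3064, which follow Mir29c and Mir344c in mean TPM, and others held lower loci. Atp5b, a subunit of mitochondrial ATP synthase, had 3463 ± 242 TPM (SD, n = 2) and its intronic Mir677 had 48.4 TPM in replicate 1 and 4.93 TPM in replicate 2. Oaz1, the antizyme that limits polyamine synthesis, had 1976 ± 155 TPM (SD, n = 2), and Mir1982 in its exon had 2.96 TPM in replicate 1 and 0 in replicate 2. Huwe1, a ubiquitin ligase, had 595 ± 197 TPM (SD, n = 2) and held 3 loci. Mir3113 had 13.6 TPM in replicate 1 and 0 in replicate 2, while Mir98 and Mirlet7f-2 were listed at 0 in both. Across the 38 intronic members with a host in the table, the Spearman rank correlation of member and host mean TPM was 0.37, a description over loci of which some share a host and all share both libraries.

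In the other hosts of at least 100 TPM most members rested on a single library. Zranb2, a splicing factor at 103 TPM, held the only further member above 0 in both, Mir186 with 19.8 TPM in replicate 1 and 5.03 TPM in replicate 2. Mir3971 (Slc43a2), Mir3075 (Zmiz1), Mir3058 (Nudt4) and Mir686 (Psmb5) had 5.38 to 7.79 TPM in replicate 1 and 0 in replicate 2. Mir5129 (Zeb2), Mir1898 (Zfr) and Mir5125 (Srrm2) had 0 in replicate 1 and 4.26 to 8.69 TPM in replicate 2. Some abundant hosts held loci listed at 0 only: Mir7-1 in Hnrnpk (501 TPM), Mir207 in Dnaja1 (553 TPM), Mir342 in Evl (237 TPM) and Mir9-2 in C130071C03Rik (100.47 TPM).

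A few members had a host that was itself near 0. Chrm2, a muscarinic receptor, had a mean of 0.62 TPM with Mir490 listed at 0 in replicate 1 and 3.89 TPM in replicate 2. Grm8, a metabotropic glutamate receptor, had 0.65 TPM with Mir592, in its exon, listed at 0 and 8.75 TPM. Sfmbt2, at 0.64 TPM, holds 70 loci of the repeated Mir466, Mir467, Mir669 and Mir297 families. Of the 70 loci 4 were members, against 14.7% of all microRNA loci. Other members lay opposite an expressed gene. Mir1970 (68.2 TPM in replicate 1, 33.9 TPM in replicate 2) lies opposite Gprasp1, a receptor-sorting protein at 294 and 202 TPM, and Mir378b (26.9 and 17.1 TPM) opposite Msi2, an RNA-binding protein at 342 and 287 TPM. Both genes and both loci were higher in replicate 1, and neither hairpin overlaps an exon of the opposite gene. The median symbol with a mean of at least 1 TPM was also higher in replicate 1, by 0.24 log2 units. Mir466i and the gene opposite it, Cdk13, differed in opposite directions, with 4.80 and 18.9 TPM against 36.95 and 26.26 TPM. Mir214 lies in an exon of Dnm3os, at 7.37 TPM in replicate 1 and 2.89 TPM in replicate 2, which runs opposite Dnm3, a neuronal dynamin at 88.0 and 48.3 TPM. The Mir214 hairpin overlaps no exon of Dnm3. Without strand, fragments of the 2 sides cannot be told apart.

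Most of the Mir344 family carried signal. Its 10 loci span 363 kb of the minus strand of chromosome 7, between Snrpn and Ndn. These are genes of the imprinted region whose human counterpart is lost in Prader-Willi syndrome. Of the 10 loci 8 were members, against 14.7% of all microRNA loci. Mir344c, at chr7:61837311-61837402, led with 94.1 TPM in replicate 1 and 97.9 TPM in replicate 2. Mir344-2 had 57.8 and 87.8 TPM, Mir344e 33.6 and 17.0 TPM, Mir344d-2 11.3 and 34.4 TPM, and Mir344 6.25 and 35.99 TPM. Mir344d-1 and Mir344b were above 0 in replicate 1 alone and Mir344g in replicate 2 alone, with 10.7 TPM. Mir344d-3 and Mir344f were listed at 0 in both.

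The family sum, 258 TPM in replicate 1 and 284 TPM in replicate 2, was more even than most of its loci. Mir344-2 lies in an intron of the noncoding RNA A330076H08Rik, at 1312 TPM in replicate 1 and 805 TPM in replicate 2. The annotated noncoding RNA A230057D06Rik holds 5 of the loci, 4 of them members, and has no value here. The flanking genes were expressed, Snrpn at 191 ± 4.14 TPM and Ndn at 46.6 ± 8.03 TPM (SD, n = 2 each). Copies with like hairpins can share fragments, so the split between loci is less certain than the sum.

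**Figure D4:**
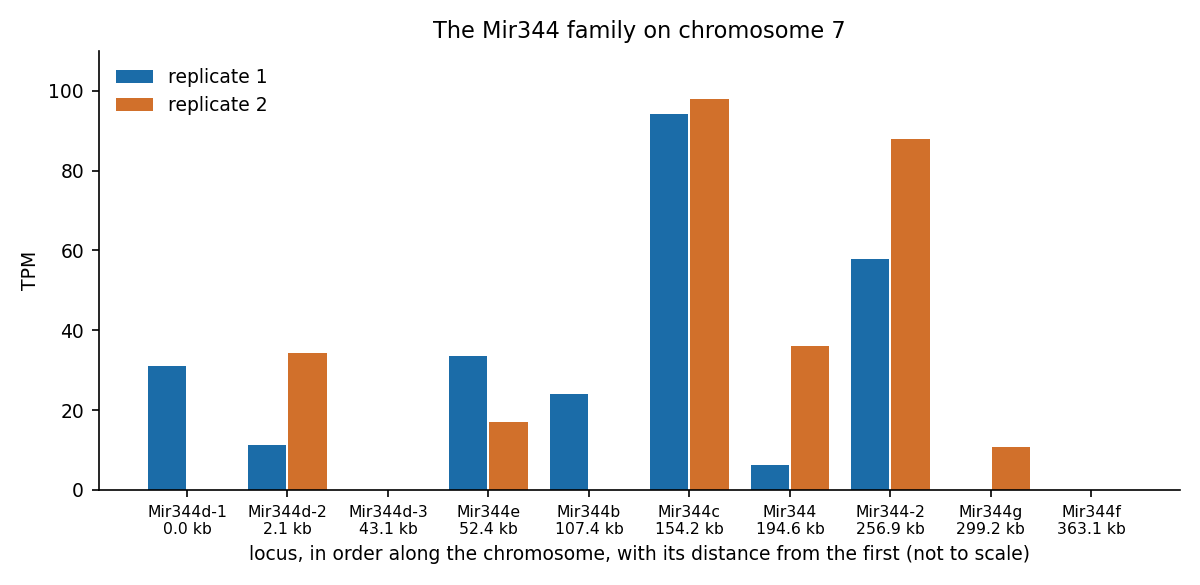
TPM of the 10 Mir344 loci in their order along chromosome 7, with the distance of each from the first in kb, in replicate 1 (blue) and replicate 2 (orange). Mir344c and Mir344-2 are the highest in both libraries, 3 loci have a bar in 1 library alone, and Mir344d-3 and Mir344f have none.

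A second imprinted domain, from Meg3 to Mirg on chromosome 12, holds many microRNAs of neurons. Its long noncoding RNAs, expressed from the maternal chromosome, differed in level. Meg3 had 369 ± 4.24 TPM and Rian 264 ± 1.63 TPM (SD, n = 2 each), both even between libraries, while Mirg had 21.1 TPM in replicate 1 and 10.01 TPM in replicate 2. Of the 49 microRNA loci there 9 (18.4%) were members, against 14.7% of all microRNA loci. All 9 were listed at 0 in 1 library, as were 61.5% of all members. In replicate 1 alone were Mir341 (19.0 TPM), Mir1188 (18.8), Mir666 (18.2), Mir665 (13.0), Mir410 (12.4), Mir453 (7.93) and Mir3070a (7.04). In replicate 2 alone were Mir493 (15.9) and Mir544 (8.69).

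Members within 10 kb of another microRNA locus on the same strand numbered 28, in 16 of the 61 such clusters of the table. The largest cluster, in Sfmbt2, held 70 loci and 4 members, and the next, on chromosome 12, held 30 loci and 4 members. The share of all microRNA loci that lie in clusters was not computed, so the count is not read as a trait of the members. Of the clusters, 7 held 2 or more members. In 3 of these every member was higher in replicate 1, and in 4 the members split between the libraries, as Mir344d-1 and Mir344d-2 did. Mir16-1 and Mir15a, cell-cycle regulators 54 bases apart in the Dleu2 transcript, had 26.46 and 23.0 TPM in replicate 1 and both 0 in replicate 2, while Dleu2 had 33.3 TPM in replicate 1 and 17.3 TPM in replicate 2. Mir181a-2 and Mir181b-2 lie 1019 bases apart opposite Nr6a1. Mir181a-2 had 15.8 TPM in replicate 1 and 9.04 TPM in replicate 2, and Mir181b-2 had 28.2 and 3.58 TPM. Neighbours of a member could be listed at 0 in both libraries, as Mirlet7c-2, Mir30d and Mir199a-2 were.

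Of families known in retina or neurons, 9 of 28 had a member, and 11 of their 66 loci (16.7%) were members, against 14.7% of all microRNA loci. Beside Mir29c, Mir211, Mir124a-2, Mir103-2 and the Mir181 pair they were Mirlet7b (7.52 TPM in replicate 1, 15.3 TPM in replicate 2), Mir128-1 (7.93 and 0), Mir30b (6.33 and 0), Mirlet7g (0 and 3.64) and Mir219-2 (0 and 3.17). The photoreceptor cluster of Mir182, Mir183 and Mir96 was listed at 0 in both libraries, and so were the listed Mir9, Mir204, Mir125, Mir26, Mir7 and Mir132 loci. A listed 0 gives no level of the locus or of the mature strand.

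Of families that mark other tissues, 2 of 24 loci (8.33%) were members. These were the muscle microRNAs Mir133a-1, with 21.8 TPM in replicate 1 and 7.40 TPM in replicate 2, and Mir1b, with 5.81 TPM in replicate 1 and 0 in replicate 2. Both lie in or opposite the ubiquitin ligase gene Mib1, whose level was 47.2 TPM. Blood and endothelial loci (Mir223, Mir142, Mir144, Mir451 and Mir126), the smooth muscle loci Mir143 and Mir145, and the epithelial Mir200 loci were listed at 0 in both libraries. Of the host RNA genes whose symbol ends in hg, Mir17hg was at 1.63 TPM in replicate 1 and 1.08 TPM in replicate 2, Mir22hg was at 0.51 and 2.46 TPM, and Mir143hg was listed at 0 in both.

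The genes that make and use microRNAs were nearly all expressed. In each library 30 of the 33 listed genes (90.9%) reached 1 TPM and 28 reached 10, against the 53.2% of protein-coding symbols given above. Their median mean level was 50.7 TPM, against 3.78 TPM for protein-coding symbols.

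All 7 genes of the microprocessor list passed the line. Ddx5 and its paralog Ddx17, helicases that assist Drosha, led with 833 ± 233 and 472 ± 29.8 TPM, and Dgcr8, the hairpin-binding partner, had 64.4 ± 20.2 TPM (SD, n = 2 each). Lowest by mean were the nuclease Drosha, with 46.1 TPM in replicate 1 and 37.8 TPM in replicate 2, and the cap-binding Ncbp1, with 54.4 and 29.6 TPM, which differed by less than their spread. Of the export pair, the GTPase Ran had 203 ± 18.2 TPM and the hairpin carrier Xpo5 had 12.9 ± 3.44 TPM (SD, n = 2 each).

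The Dicer group was lower and less even. Dicer1, which cuts the hairpin, had 27.4 TPM in replicate 1 and 18.1 TPM in replicate 2, and its partner Tarbp2 had 21.0 and 14.2 TPM. Prkra, another Dicer partner, had 122 TPM in replicate 1 and 34.7 TPM in replicate 2, and the RNA editor Adar had 37.2 and 7.58 TPM. All 4 were higher in replicate 1.

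Of 8 genes of silencing, 7 passed. The scaffolds Tnrc6b and Tnrc6a led with 70.2 ± 18.4 and 69.8 ± 3.31 TPM (SD, n = 2 each). Ago2, the Argonaute that can cut its target, had 34.2 TPM in replicate 1 and 32.2 TPM in replicate 2, and Ago1, the lowest Argonaute by mean, had 28.1 and 11.3 TPM. The helicase Mov10, with 0.15 and 0.61 TPM, did not pass.

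Among 12 regulators of hairpins and of microRNA decay 10 passed. The splicing factors Srsf3 and Hnrnpa1, which bind some hairpins, led with 718 ± 190 and 599 ± 234 TPM (SD, n = 2 each). Cdr1, a gene opposite a circular RNA known to hold miR-7 sites, had 60.6 TPM in replicate 1 and 161 TPM in replicate 2. The value is of the gene symbol and was not matched to the circular RNA. All 3 listed Mir7 loci were listed at 0. Lin28a was listed at 0 in both libraries and Lin28b, a blocker of let-7 hairpins, had 0.72 and 0.30 TPM.

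**Figure D5:**
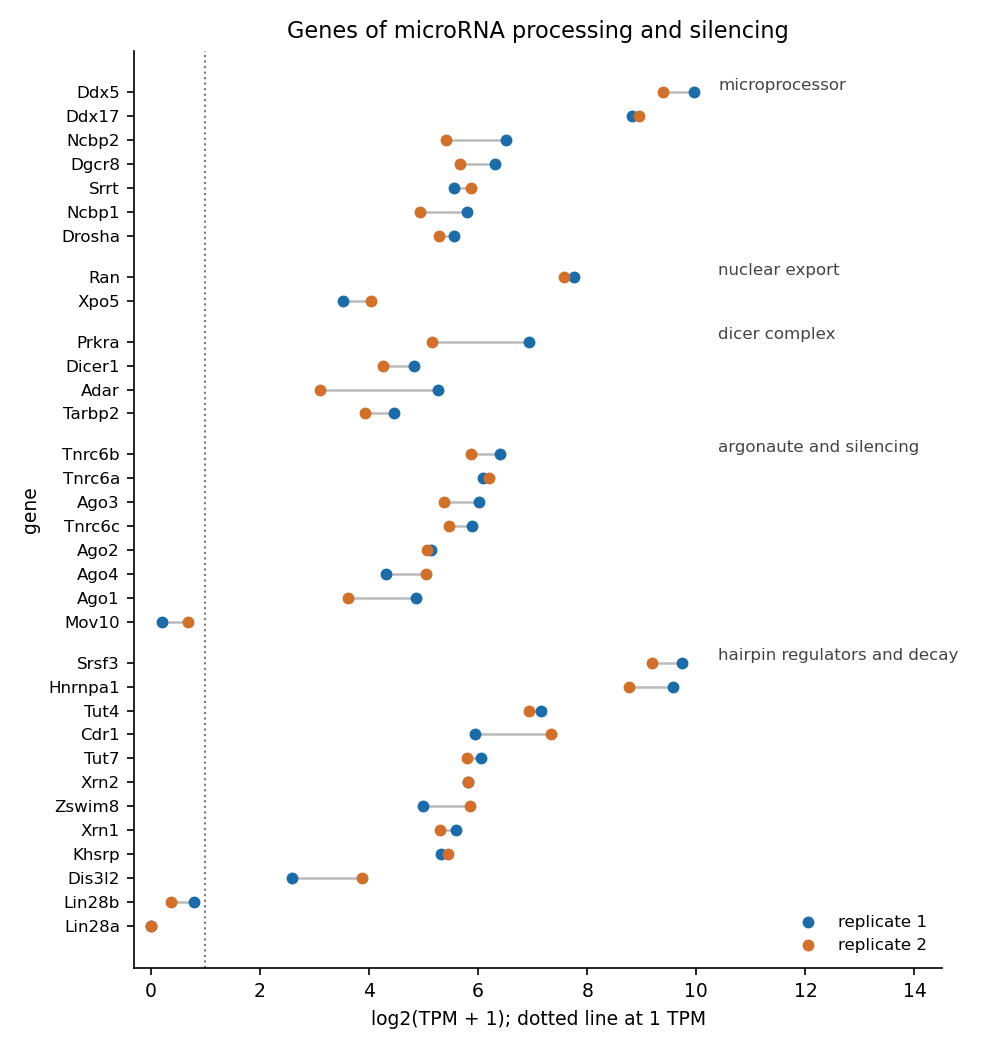
Level of 33 genes of microRNA processing and silencing, grouped by role, as log2(TPM + 1) in replicate 1 (blue) and replicate 2 (orange), with a dotted line at 1 TPM. Mov10, Lin28b and Lin28a lie left of the line, and the other 30 genes lie right of it in both libraries.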

How the data were processed

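The authors deposited 1 table of TPM with a column per library, which sums to 999999.75 (replicate 1) and 999999.66 (replicate 2). Tools named in the submitters' processing notes are RSEM 1.2.28 and TopHat2 2.0.10, beside the build mm10, with no role or order. The annotation release, filters and use of strand are not given. The column of replicate 1 misspells Htr3a and was assigned by the number in its name. TPM keeps no depth, so depth is unknown and no interval was computed. The only floor given is the step of the fitted grid, which was not checked against read counts.

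Values were used as deposited. Differences between libraries are on the log2(TPM + 1) scale, with a pseudocount of 1. Hairpin lengths, hosts and clusters came from GENCODE M21 (GRCm38). Steps were fitted by searching for the step and the subtracted length that placed most members of up to 5 steps within 0.05 of a whole multiple, a procedure chosen after seeing the values. With 1 group no contrast exists, and p-values would measure only the spread between libraries. Named loci are the 20 highest, the family lists, the 5 widest library gaps per direction among members with a mean of at least 10 TPM, the 3 on each side of the line, hosts of at least 100 TPM and clustered members, plus low and opposite-strand hosts chosen after their values were seen. Some items that these lists and rules take are not reported here. Members and lists were chosen with earlier results of these data known. Alternatives were other lines, pseudocounts, scalings and single libraries. Tools were scipy 1.17.1, pandas 2.3.3, numpy 2.4.6 and matplotlib 3.10.9, run under Python 3.11.15.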

Additional observations from a re-analysis of the deposited data

How the results depend on the processing

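The number of microRNA loci over the line was 96. It was 37 with at least 1 TPM in each library, 39 at a line of 10 TPM, and 30 with at least 5 steps over both libraries, an alternative added after seeing the data. It was 66 to 71 with a single library, and 65 with at least 1.5 steps, also added later. Lines of 0.5 and 2 TPM gave 100 and 86, and leaving out mitochondrial RNA (17.3% of the TPM of replicate 1 and 24.6% of replicate 2) gave 99. The median log2 difference between libraries, replicate 2 minus replicate 1, was -0.65 for members and -0.24 for all symbols with a mean of at least 1 TPM, and stayed between -0.72 and -0.36 under other pseudocounts, other scalings and with members above 0 in both. A scaling by the median ratio of genes over 10 TPM shifts all genes by 0.17. Members with an expressed host numbered 48, and 32 to 56 under the alternatives for line, library, strand and exon overlap, the last of these added later. Pathway genes over the line numbered 30, and 28 to 30 under the alternatives. With the grid fitted at a tolerance of 0.1 and values still counted within 0.05 of a whole step, 46 members were whole in replicate 1 and 29 in replicate 2. No paired analysis was possible because the series has 1 group. The worth of 1 step, 7.04 TPM in replicate 1 and 3.57 TPM in replicate 2 at the median length, limits every value of a few TPM.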

Other observations

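The repeated Mir466, Mir467, Mir669 and Mir297 families, copies of related hairpins rich in simple repeats, held 79 loci and 10 members. Of all microRNA loci 14.7% were members, so the count marks nothing particular to these families. The highest by mean was Mir467g, with 13.1 TPM in replicate 1 and 13.6 TPM in replicate 2, which lies opposite the receptor kinase gene Grk4. Mir466i had 4.80 TPM in replicate 1 and 18.9 TPM in replicate 2. In Sfmbt2, Mir466f-1 had 18.0 TPM in replicate 1 and 0 in replicate 2, Mir466p 0 and 17.9 TPM, Mir669c 0 and 2.64 TPM, and Mir669g 0 and 2.32 TPM. Fragments of such copies can be divided among loci, so single values are uncertain.

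In the RefSeq entries used, which left out chromosome 18, 73 members had a hairpin. Of these hairpins, 13 were found whole in the sense strand of a transcript of another gene. They included Mir29c, Mir3064 in Ddx5, Mir1191 in BC024978 and Mir678 in Prmt2. Of 55 members with a host in the table, 14 had a mean at or over that of the host. TPM divides by length, so a short locus needs few fragments to reach the TPM of a long host.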
